A study of Mus musculus with 8 samples.

Results

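Rab proteins are small GTPases that give each membrane compartment of the vesicle traffic system its identity. A Rab is switched on by an exchange factor that loads GTP, recruits effectors that tether, move or fuse vesicles, and is switched off by a GTPase activating protein, after which a dissociation inhibitor lifts it off the membrane. In dendritic cells, the antigen-presenting cells measured here, this traffic carries captured material from early endosomes to lysosomes and MHC molecules and cytokines to the surface. The members are all rows of the expression table whose symbol is Rab followed by a number and, for some, a letter, so that pseudogenes and Rab-binding proteins stay out. They were 59 of the 55880 rows, and were grouped by the compartment each is best known for into 6 early endosome, 9 recycling, 11 late endosome and lysosome, 12 ER and Golgi, 12 exocytosis and 9 other Rab genes. The rule reads the symbol alone.

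Gene expression was measured by poly-A RNA sequencing in dendritic cells grown from the bone marrow of male wild-type (WT) C57BL/6 mice aged 6 weeks, cultured for 6 days with 10 ng/mL IL-4 and 20 ng/mL GM-CSF. In the LMF group the cells were kept for 24 h with ITRs, an agent whose name the labels do not spell out, and a low-frequency magnetic field was then applied. The labels call the Control cells untreated and do not say whether they received a carrier, and RNA was taken at 6 h. Each group had 4 libraries, with 17309368 to 21585750 counts in Control and 16592672 to 18532878 in LMF. The ITRs and the field were given together, so their contributions cannot be told apart. A further group, given magnetic rod-shaped micromotors, is named in the series design and was not analysed here. The labels carry 1 treatment entry for all 8 libraries, so the groups come from the titles. Whether replicates are separate animals or separate dishes is not stated. The p-values therefore cover only the spread from library to library, and that spread may be technical.

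Across all genes, 14074 passed the filter on low counts and 34.4% of them were called, meaning an adjusted p under 0.05 in edgeR's quasi-likelihood test with Benjamini-Hochberg adjustment. The share called higher in LMF was 17.5% and the share called lower was 16.9%. The second principal component (10.7% of the variance) set LMF replicate 4 apart, at -27.21, where LMF replicates 1 to 3 scored 6.79 to 14.03. The deviation of LMF replicate 4 from the other LMF libraries had a median of -0.038 (log2) over the 29 Rab genes with more than 500 counts on average. Bone marrow cultures hold several cell types, and in these bulk libraries fewer cells of a type and less RNA per cell cannot be told apart. The dendritic cell markers were present, except that Cd209a was near 0. Their summed level was 8000 to 8390 CPM (counts scaled to a common library total) in Control and 7770 to 8910 in LMF, and 5 of the 11 tested rose, among them Itgax and Flt3, and Cd74 fell. The 12 macrophage markers summed to 6780 to 7500 CPM in Control and 4960 to 5230 in LMF, with 8 lower and 1, Marco, higher. Monocyte markers summed to 2780 to 2940 CPM against 2370 to 2500, with Ccr2 and Fn1 lower and Hp, Ly6c2 and F13a1 higher of 7 tested. Neutrophil markers summed to 1790 to 1860 CPM against 1960 to 2210, with 6 of 11 higher and Ly6g lower. Mast cell and basophil markers summed to 197 to 218 CPM against 224 to 250, with Mcpt4 at 0. B cell markers stayed at 10.9 to 16.7 CPM and T and NK cell markers at 9.49 to 12.5 over all libraries. The part of these shifts in the Rab results below was not tested.

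The cultures, taken as a whole, held a broad Rab repertoire in which the late endosome gene Rab7 was the most abundant. Levels between genes are compared in FPKM, the authors' value per length and library size. Rab7, which drives fusion of late endosomes with lysosomes, stood at 236 ± 2.94 FPKM in Control and 247 ± 7.71 in LMF (SD, n = 4). Next came Rab5c, an early endosome fusion Rab, at 141 ± 4.20 FPKM in Control and 141 ± 4.71 in LMF. Rab1b, which acts in transport from the ER to the Golgi, was at 116 ± 3.69 FPKM in Control and 107 ± 4.62 in LMF. Rab8b, which sends vesicles to the plasma membrane, was at 110 ± 2.70 and 112 ± 4.52 FPKM, so Rab1b was above Rab8b in Control and below it in LMF. In each group their means differed by less than the sum of their SDs. Below them were Rab1a (66.1 ± 1.08 FPKM in Control), Rab2a (61.5 ± 2.05), Rab32 (59.7 ± 1.69) and Rab10 (46.5 ± 1.84). By FPKM the most abundant recycling gene was Rab35 (38.6 ± 0.422 in Control), and the most abundant of the other group was Rab12 (21.9 ± 0.642). Rab14, also a recycling gene, had more counts than Rab35 (317 against 109 CPM in Control). Its FPKM depends on an uncertain length, given below, so the order of Rab35 and Rab14 is not settled. The total of all Rab genes was 4642 to 4725 CPM in Control and 4727 to 4821 CPM in LMF. The highest Control and the lowest LMF sum nearly met, and the total was neither tested nor computed under other scalings.

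**Figure D1:**
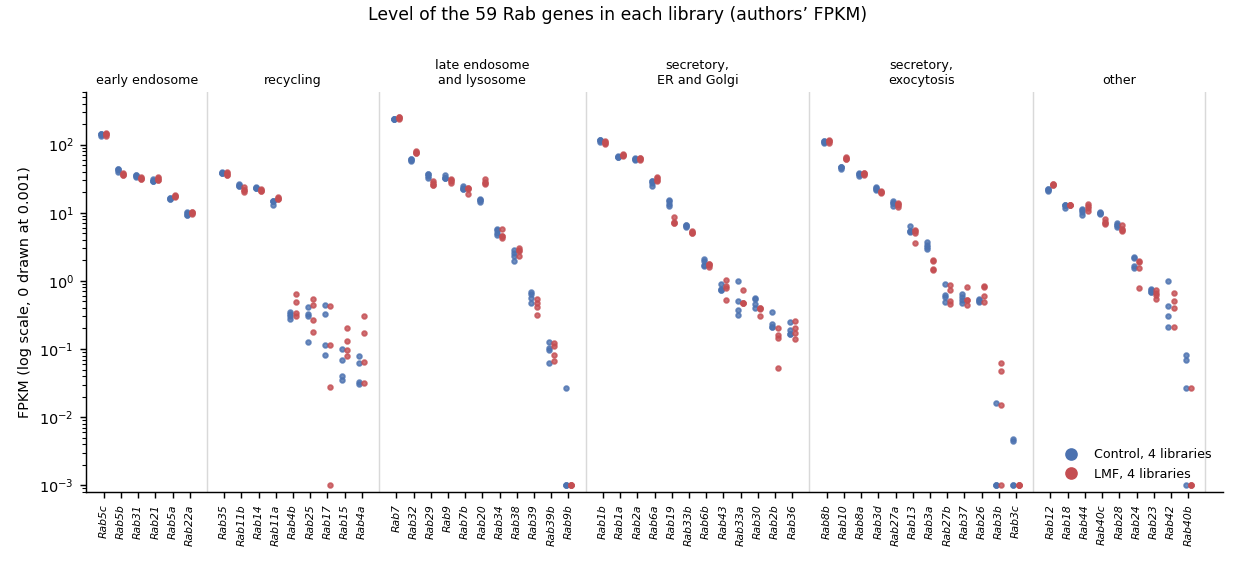
FPKM of each of the 59 Rab genes (log scale) in each of the 4 Control and 4 LMF libraries, sorted within each role group by level. Rab7 is highest in both groups, and the lowest genes, such as Rab9b, Rab3b and Rab3c, are at or near 0.

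The low end of the list held 10 genes with 0 to 19 counts in any library, which were not tested: Rab4a, Rab15, Rab17 and Rab25 of the recycling group, Rab9b and Rab39b of the late endosome group, Rab3b and Rab3c of the exocytosis group, and Rab40b and Rab42. Rab25 and Rab17 are known from epithelial cells, and Rab3c from neurons. Rab4a lies wholly inside Galnt2l on the same strand, and reads of the shared stretch cannot be told apart. Rab4b lies in Gm21983 on the same strand over 10467 of its 10473 bases and shares 93.0% of its 50-base stretches with it. Rab43 lies in Gm45140 on the same strand over 23304 of its 23312 bases, with 90.3% shared. The levels of these 3 genes are therefore uncertain. Rab15 lies wholly inside Fntb on the opposite strand (87 to 128 counts per library). Whether strand was used in counting is not given, so the level of Rab15 is uncertain as well. The FPKM of Rab14 is uncertain too, because the length it implies is 2.72 times the longest annotated transcript, against a median of 1.12 over the Rab genes.

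Of the 49 tested Rab genes, 9 rose and 12 fell in LMF, together 42.9%, beside 34.4% of all tested genes. The share that rose was 18.4%, beside 17.5% of all genes, and the share that fell was 24.5%, beside 16.9%. Most of the changes were small. Of the 21 called, 8 had an absolute log2 fold change of at least 0.3 (16.3% of the 49, beside 18.8% of all tested genes), and none of the 49 reached a 2-fold change. The median absolute log2 fold change of the called genes was 0.20, against 0.32 over all called genes. In 19 Rab genes (38.8%, beside 31.8% of all genes) the CPM of the groups did not overlap. Rab genes that passed the test had a median of 1640 counts and those that did not had 193. For 12 genes that did not pass, the SE was under 0.1 and the log2 fold changes lay between -0.17 and 0.10.

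**Figure D2:**
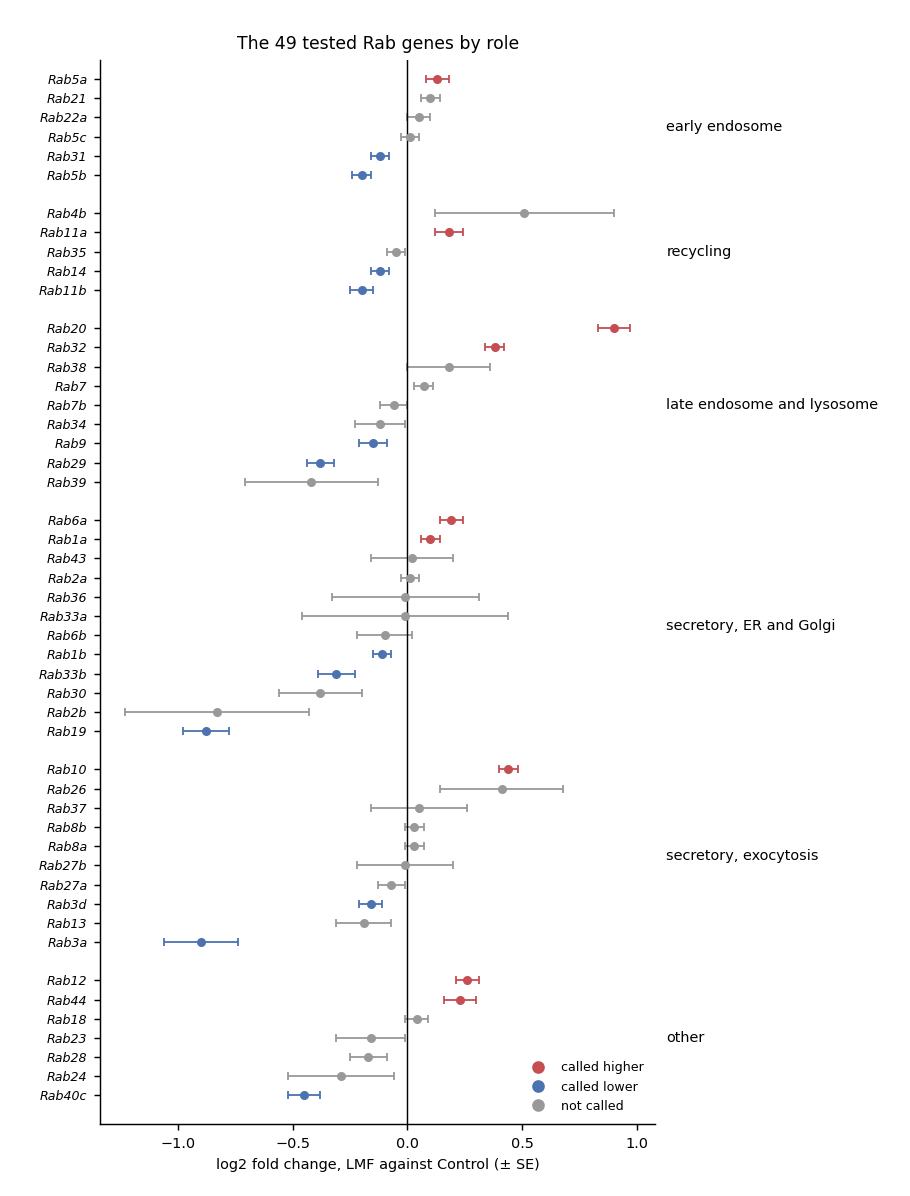
Log2 fold change of LMF against Control with its SE for the 49 tested Rab genes, by role group, from the edgeR fit across all genes (4 libraries per group). Each of the 6 role groups holds members on both sides of 0, from Rab3a at -0.90 to Rab20 at 0.90.

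The changes among the early endosome Rabs were small and went in both directions. Rab5a rose, Rab5b and Rab31 fell, and Rab5c, Rab21 and Rab22a did not pass, with a median log2 fold change of 0.03 over the 6. Rab5 proteins drive the uptake and fusion of early endosomes, and Rab5c had the highest FPKM of them. Rab5b was at 180, 184, 177 and 168 CPM in Control replicates 1 to 4 and at 159, 154, 155 and 152 CPM in LMF. Every LMF library lay below every Control library, and the log2 fold change was -0.20 ± 0.04 (SE, adjusted p = 1.9e-04). Rab5a was at 86.1, 85.5, 83.4 and 85.6 CPM in Control and 91.5, 93.9, 97.1 and 90.6 CPM in LMF, again without overlap, with a log2 fold change of 0.13 ± 0.05 (SE, adjusted p = 0.0236). Its call was lost under 5 of the 17 alternatives (adjusted p 0.017 to 0.0929 over all), namely without a filter on low counts and without Control replicate 3, Control replicate 4, LMF replicate 2 or LMF replicate 3. For Rab5c the log2 fold change was 0.01 ± 0.04 (adjusted p = 0.911), and its sign differed between scalings. Rab31, which carries cargo from the Golgi to endosomes, fell by 0.12 ± 0.04 on the log2 scale (adjusted p = 0.0257), from 130 to 137 CPM in Control to 120 to 129 in LMF, and was lost on leaving out any of 4 single libraries (Control replicates 2 and 3, LMF replicates 3 and 4, adjusted p 0.0583 to 0.0871). Rab21, an integrin-sorting Rab, lay at 148 to 154 CPM in Control and 154 to 171 in LMF and just missed the threshold (0.10 ± 0.04, adjusted p = 0.0518). Rab22a, known in dendritic cells for MHC class I recycling, was at 69.8 ± 3.82 CPM in Control and 72.2 ± 2.51 in LMF (SD, n = 4). Sequence of Rab5b is shared with the pseudogene Gm13991 over 13% of its 50-base stretches, and that pseudogene had 28 to 81 counts per library.

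Among the recycling Rabs, Rab11a rose, Rab11b and Rab14 fell, and Rab35 and Rab4b did not pass. Rab11 proteins mark the recycling endosome that returns receptors to the surface. The more abundant form, Rab11b, was at 148, 152, 162 and 156 CPM in Control and 147, 136, 124 and 131 CPM in LMF, where replicate 1 nearly reached the lowest Control library. Its log2 fold change was -0.20 ± 0.05 (SE, adjusted p = 6.83e-04). Rab11a was at 44.7, 39.0, 43.9 and 44.8 CPM in Control and 50.7, 47.6, 48.0 and 48.4 CPM in LMF, and rose by 0.18 ± 0.06 (adjusted p = 0.021). Without Control replicate 2, the lowest library, the call was lost (adjusted p = 0.128), and likewise without LMF replicate 1 (0.0559). Rab14, which moves cargo between endosomes and the Golgi, was among the genes with the most counts of the list and fell from 310 to 325 CPM in Control to 286 to 303 in LMF (log2 fold change -0.12 ± 0.04, adjusted p = 0.01). Rab35, a fast recycling Rab, was at 109 ± 0.507 CPM in Control and 105 ± 5.80 in LMF, and Rab4b had 10 to 23 counts per library.

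The late endosome and lysosome group held the largest rise of any Rab gene. Rab20 and Rab32 rose, Rab29 and Rab9 fell, and Rab7, Rab7b, Rab34, Rab38 and Rab39 did not pass. Rab20, which acts on endosomes and maturing phagosomes in macrophages, was at 22.0, 20.1, 21.3 and 21.6 CPM in Control and at 38.9, 44.5, 37.1 and 38.0 CPM in LMF. The groups lay far apart, and the level was 1.86 times that of Control (log2 fold change 0.90 ± 0.07 SE, adjusted p = 2.7e-12). In FPKM it moved from rank 23 to rank 16 of the 59. A pair of sparse genes overlaps Rab20, Gm20100 on the same strand (3 to 28 counts per library) and E230013L22Rik on the opposite strand (10 to 47 counts). Both were higher in LMF as well (log2 fold changes 1.27 ± 0.42 and 1.17 ± 0.30, adjusted p = 0.0171 and 0.00247), and their counts were small against the 372 to 790 of Rab20.

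Rab32 serves the biogenesis of lysosome-related organelles and the delivery of antimicrobial cargo to phagosomes. It was at 140, 136, 136 and 145 CPM in Control and 177, 184, 175 and 189 CPM in LMF. There was no overlap, and the log2 fold change was 0.38 ± 0.04 (SE, adjusted p = 2.39e-09). Its close relative Rab38, known from pigment cells, was at 3.80 ± 0.567 CPM in Control and 4.32 ± 0.521 in LMF (adjusted p = 0.469). Rab29, linked to the kinase Lrrk2 and to lysosome stress, was at 53.3, 47.6, 51.4 and 53.9 CPM in Control and 42.8, 37.7, 40.0 and 37.9 CPM in LMF. All 4 LMF libraries lay below all 4 Control libraries (log2 fold change -0.38 ± 0.06, adjusted p = 5.34e-06). Rab9, which returns mannose 6-phosphate receptors to the Golgi, was at 55.5 to 62.7 CPM in Control and 48.5 to 54.9 in LMF (-0.15 ± 0.06, adjusted p = 0.0411). Its call did not hold without Control replicate 3 (adjusted p = 0.195), the library with the highest value, nor without LMF replicate 2 (0.144) or LMF replicate 3 (0.0658), with the DESeq2 test (0.0601) or on log2(FPKM + 1) (0.0503). Rab7 itself was at 609 to 622 CPM in Control and 616 to 673 in LMF and did not pass (0.07 ± 0.04, adjusted p = 0.132), though it did without LMF replicate 1 (0.0256). Of its 50-base stretches 14.5% occur in Rab7-ps1, a pseudogene with 134 to 217 counts. Rab7b, which sorts Toll-like receptors, was at 106 ± 6.22 CPM in Control and 101 ± 10.3 in LMF, and LMF replicate 1 (85.7 CPM) stood below LMF replicates 2 to 4 (104 to 108).

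**Figure D3:**
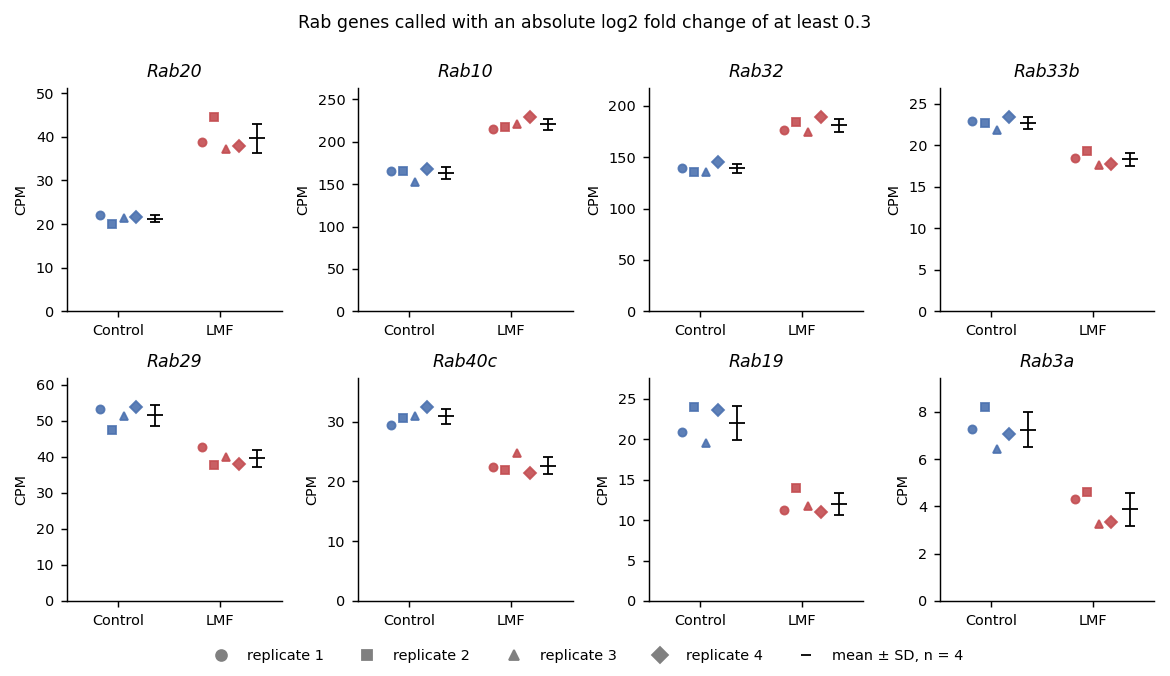
CPM in each library, with the mean and SD of 4 libraries, for the 8 Rab genes called with an absolute log2 fold change of at least 0.3, each axis starting at 0. In none of the 8 do the Control and LMF libraries overlap, from Rab20 (20.1 to 22.0 against 37.1 to 44.5) to Rab3a (6.44 to 8.21 against 3.24 to 4.62). The 8 were picked on these same libraries, so the lack of overlap is no separate support. Of all tested genes, 31.8% had groups without overlap.

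In the ER and Golgi group, Rab6a and Rab1a rose, Rab1b, Rab33b and Rab19 fell, and 7 of 12 did not pass. The share called was 41.7%, beside 34.4% of all tested genes. Rab19, a little-studied Rab of Golgi and vesicle membranes, was at 20.9, 24.0, 19.5 and 23.6 CPM in Control and at 11.2, 14, 11.7 and 11 CPM in LMF. The level in LMF was 0.544 times that in Control, with no overlap (log2 fold change -0.88 ± 0.10 SE, adjusted p = 4.62e-09). Rab33b, a Golgi Rab that binds the autophagy protein Atg16l1, was at 22.9, 22.7, 21.8 and 23.4 CPM in Control and 18.5, 19.3, 17.6 and 17.8 CPM in LMF. It too was lower in every LMF library (-0.31 ± 0.08, adjusted p = 0.00268). Its relative Rab33a had 8 to 20 counts per library and gave no call, with a sign that changed between settings. Rab1a and Rab1b both act between the ER and the Golgi and were at 251 ± 4.67 and 262 ± 9.84 CPM in Control (SD, n = 4). In LMF Rab1a was at 270 ± 8.72 CPM and Rab1b at 244 ± 11.8. Rab1a rose by 0.10 ± 0.04 (adjusted p = 0.0293) and Rab1b fell by 0.11 ± 0.04 on the log2 scale (adjusted p = 0.0386), but in each the libraries of the groups overlapped. The call of Rab1a was lost under 8 of 17 alternatives (adjusted p 0.00468 to 0.104), 6 of them a left-out library (Control replicates 1, 3 and 4, LMF replicates 2, 3 and 4), and that of Rab1b on leaving out Control replicate 2, 3 or 4 or LMF replicate 3 (up to 0.149). Rab6a, which runs transport through the Golgi, was at 92.0 to 110 CPM in Control and 109 to 124 in LMF (0.19 ± 0.05, adjusted p = 0.00481), and missed the threshold on log2(FPKM + 1) and log2(FPKM + 0.1) (0.0529 and 0.0518). Rab2a was at 131 ± 5.0 CPM in Control and 132 ± 4.06 in LMF. Rab6b and Rab43 did not pass. Rab2b, Rab30 and Rab36 had at most 97 counts in a library, and the log2 fold change of Rab2b, -0.83 ± 0.40, did not pass (adjusted p = 0.111).

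Of the 10 tested exocytosis Rabs, Rab10 rose and Rab3a and Rab3d fell (30.0% called, beside 34.4% of all tested genes). Rab10, which carries vesicles to the plasma membrane and in macrophages returns Toll-like receptor 4 to the surface, was at 165, 166, 153 and 168 CPM in Control and 215, 217, 221 and 229 CPM in LMF. The lowest LMF library stood well above the highest Control library (log2 fold change 0.44 ± 0.04 SE, adjusted p = 4.81e-11). The antisense gene Rab10os overlaps 2950 of its 62542 bases, held 262 to 399 counts and did not pass (0.09 ± 0.10, adjusted p = 0.496). Rab3a, a Rab of regulated secretion best known from synapses, was low, at 7.29, 8.21, 6.44 and 7.04 CPM in Control and 4.32, 4.62, 3.24 and 3.32 CPM in LMF. It did not overlap between the groups and fell by 0.90 ± 0.16 on the log2 scale (adjusted p = 1.94e-05), with 55 to 159 counts per library. Rab3d, its more abundant relative in secretory granules, was at 92.3 to 98.2 CPM in Control and 81.6 to 87.3 in LMF (-0.16 ± 0.05, adjusted p = 0.00626). Rab8b and Rab8a, which send vesicles to the plasma membrane, were at 521 ± 11.8 and 171 ± 5.70 CPM in Control and 531 ± 18.7 and 175 ± 6.96 in LMF (log2 fold change 0.03 ± 0.04 in both). Rab27a, which docks lysosome-related organelles for release, was at 53.8 ± 3.79 CPM in Control and 51.2 ± 2.69 in LMF (adjusted p = 0.363). Rab27b, Rab13, Rab26 and Rab37 did not pass. Rab37 overlaps Cd300lf on the opposite strand over 17779 bases and Rab26 overlaps Traf7 on the same strand, so their low counts may hold reads of those neighbours.

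Among the Rabs of the other group, Rab12 and Rab44 rose and Rab40c fell. Rab12, which directs transferrin receptor to degradation, was at 65.3, 66.9, 68.6 and 64.4 CPM in Control and 80.1, 79.6, 80.1 and 76.7 CPM in LMF, all above Control (0.26 ± 0.05, adjusted p = 7.37e-05). Rab44, a large Rab with calcium-binding EF hands found in bone marrow cells and mast cells, was at 46.6 to 56.7 CPM in Control and 54.1 to 67.8 in LMF (0.23 ± 0.07, adjusted p = 0.0073). Its groups overlapped, and the call was lost on both FPKM scales (adjusted p = 0.0716 and 0.0703) and without Control replicate 4 (0.0515). Beside it stands the mast cell and basophil marker sum given above, whose part in the result was not tested. Rab40c, a subunit that recruits substrates to a cullin ubiquitin ligase, was at 29.4, 30.7, 31.0 and 32.5 CPM in Control and 22.4, 22.0, 24.7 and 21.4 CPM in LMF. Again no library crossed over (-0.45 ± 0.07, adjusted p = 9.69e-06). Rab18, a Rab of lipid droplets and the ER, was at 86.1 ± 3.58 CPM in Control and 88.8 ± 0.766 in LMF. Rab23, Rab24 and Rab28 did not pass. Rab24 shares 1447 of its 2204 bases with Prelid1 on the opposite strand, so its level is uncertain.

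Promoter windows of the 8 most changed genes are described because these genes moved most, and the sequences of 4 are printed, both motif carriers and the Rab10 and Rab32 windows for contrast. RefSeq (GRCm38.p6) gave a start for 48 of the 59 genes. Each line below holds the 250 bases before the start, 5′ to 3′ on the gene's strand, with capitals marking the letters of a motif match. The windows are chr8:11478641-11478890 (minus strand) for Rab20, chr6:39381103-39381352 (plus) for Rab19, chr12:3309970-3310219 (minus) for Rab10 and chr10:10558208-10558457 (minus) for Rab32.
Rab20: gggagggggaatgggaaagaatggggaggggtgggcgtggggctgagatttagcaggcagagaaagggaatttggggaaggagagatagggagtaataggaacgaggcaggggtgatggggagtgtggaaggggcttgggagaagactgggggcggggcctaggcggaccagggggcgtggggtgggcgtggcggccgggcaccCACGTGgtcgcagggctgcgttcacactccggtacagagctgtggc
Rab19: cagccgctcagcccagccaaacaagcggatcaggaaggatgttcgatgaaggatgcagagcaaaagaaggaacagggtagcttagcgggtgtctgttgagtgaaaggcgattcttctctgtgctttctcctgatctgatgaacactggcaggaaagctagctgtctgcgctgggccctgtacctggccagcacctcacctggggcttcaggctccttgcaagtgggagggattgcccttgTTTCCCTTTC
Rab10: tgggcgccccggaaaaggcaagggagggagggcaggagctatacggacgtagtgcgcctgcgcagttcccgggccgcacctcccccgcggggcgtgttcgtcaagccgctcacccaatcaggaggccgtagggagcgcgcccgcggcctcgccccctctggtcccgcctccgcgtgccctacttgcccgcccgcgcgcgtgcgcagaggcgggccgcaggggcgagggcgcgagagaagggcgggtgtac
Rab32: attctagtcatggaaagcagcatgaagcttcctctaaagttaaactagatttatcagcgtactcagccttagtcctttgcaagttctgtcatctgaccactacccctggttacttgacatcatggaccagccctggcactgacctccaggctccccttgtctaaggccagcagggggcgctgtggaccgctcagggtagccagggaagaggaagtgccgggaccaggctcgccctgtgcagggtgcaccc
The capitals in Rab20 are an E-box, CACGTG, the letters read by TFEB, MITF and MYC, beginning 46 bases before the start. Those in Rab19 belong to a pair of overlapping matches to the interferon response core AAANNGAAA on the opposite strand, which begin 10 and 4 bases before the start, the second running past the start. Motifs were searched on both strands in 300 bases, from 250 before to 50 after the start. Over all 32851 windows, 7.15% held the E-box and 10.6% the interferon response core. Of the 8 windows of Rab genes called higher, 2 held an E-box (Rab20 and Rab5a), and of the 13 windows of those called lower (Rab3a has a pair), 0 did. The interferon response core was in 0 of 8 and 1 of 13. The NF-kappaB letters GGNNTTTCC (5.82% of all windows) were in 0 of 8 and 1 of 13 (Rab9), and the AP-1 letters TGANTCA (7.81%) and the NRF2 letters TGACNNNGC (12.4%) were in 0 of either. The CREB letters TGACGTCA (1.79%) were in the window of Rab5a. Among the 27 windows of Rab genes without a call, 4 held an E-box (Rab21, Rab23, Rab24 and Rab27a) and 8 the NRF2 letters. There the interferon response core was in 1, the NF-kappaB letters in 2, the AP-1 letters in 1 and the CREB letters in 0. The Rab10 window held 34 CG dinucleotides (74.8% G or C) and that of Rab32 held 5 (55.6%), against a median of 6 over all promoters. The windows of Rab40c (chr17:25919715-25919964), Rab29 (chr1:131867027-131867276), Rab33b (chr3:51483716-51483965) and Rab3a held none of the 6 motifs. A match shows only that the letters are present.

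Some close relatives were called in opposite directions in the fit across genes, but no paralog ratio passed its own test. Of 18 pairs of paralogs, 14 had both members tested, and their log2 ratio was computed in each library. The ratio of Rab11a to Rab11b was -1.72, -1.95, -1.87 and -1.79 in Control and -1.53, -1.50, -1.36 and -1.43 in LMF, a shift of 0.38 toward Rab11a with no overlap. That of Rab5a to Rab5b moved from -1.05 ± 0.06 in Control to -0.73 ± 0.05 in LMF (SD, n = 4), and that of Rab1a to Rab1b from -0.06 ± 0.04 to 0.15 ± 0.07. In these 3 pairs the a form was called higher and the b form lower in the fit across genes. The ratio of Rab5b to Rab5c shifted by -0.20, that of Rab3a to Rab3d by -0.67, and that of Rab22a to Rab31 by 0.17. These 6 pairs were the ones whose libraries did not overlap, and each had p = 0.0286 in the two-sided exact permutation test over 70 arrangements, the smallest it can give, and an adjusted p of 0.0667 over the 14 pairs. None of the 14 therefore passed. A pass at this smallest p would have needed more pairs to reach it, so the lack of a call says little about the ratios. Of the 6, the pairs of Rab5a to Rab5b and of Rab5b to Rab5c share Rab5b and are not independent. No such ratios were computed over other genes. The ratio of Rab8a to Rab8b had a mean of -1.60 in both groups (exact permutation p = 0.971), and those of Rab2a to Rab2b (0.53), Rab7 to Rab7b (0.14), Rab6a to Rab6b (0.27), Rab5a to Rab5c (0.12), Rab32 to Rab38 (0.21), Rab33a to Rab33b (0.32) and Rab27a to Rab27b (-0.06) shifted with overlap. Of the 50-base stretches of Rab11b 9.2% occur in Rab11b-ps2, a pseudogene with 121 to 216 counts.

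**Figure D4:**
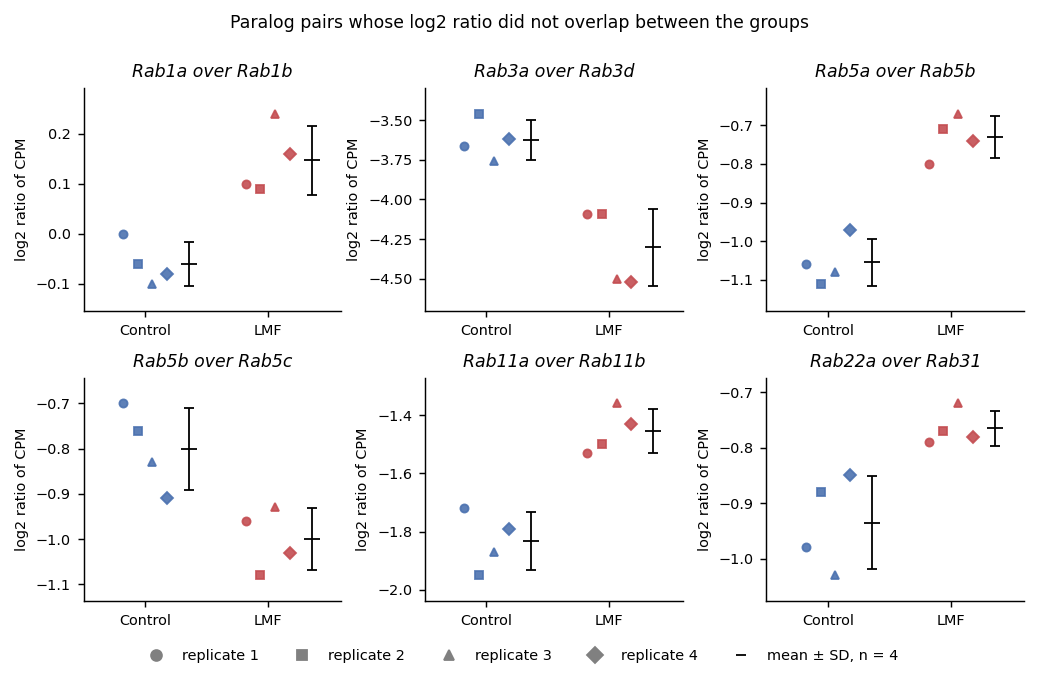
Log2 ratio of CPM of the paralogs in each library for the 6 of 14 pairs whose groups did not overlap, with the mean and SD of 4 libraries. The ratios of Rab1a, Rab5a and Rab11a over their b forms and of Rab22a over Rab31 are higher in LMF, and those of Rab3a over Rab3d and Rab5b over Rab5c are lower.

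The machinery that loads and recycles Rab proteins was lower in LMF or did not pass. Newly made Rabs receive their lipid anchor from Rab geranylgeranyl transferase with an escort protein, and are later extracted by the dissociation inhibitors. Of 8 tested genes of this list 4 fell and 0 rose, beside 16.9% lower and 17.5% higher of all tested genes, with a median log2 fold change of -0.14. Gdi2, a dissociation inhibitor, was at 886, 856, 866 and 876 CPM in Control and 768, 744, 788 and 735 CPM in LMF, with no overlap (-0.20 ± 0.03 SE, adjusted p = 1.93e-05). Rabggta, the alpha subunit of the transferase, went from 34.5 ± 2.02 to 26.1 ± 1.81 CPM (SD, n = 4, log2 fold change -0.40 ± 0.07, adjusted p = 3.02e-05). The escort protein gene Chml went from 18.1 ± 1.5 to 14.4 ± 1.38 CPM (-0.33 ± 0.10, adjusted p = 0.00683), and it lies on the same strand as Opn3, with which it shares 10540 bases. The 4th was Rabac1, a membrane acceptor of Rabs (-0.26 ± 0.07, adjusted p = 0.00732), named after its values were seen.

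Of 42 tested exchange factors, 8 rose and 10 fell (19.0% and 23.8%, beside 17.5% and 16.9% of all genes), with a median of 0.03. Rin3, which activates Rab5 and Rab31, was at 283, 299, 299 and 277 CPM in Control and 184, 188, 162 and 181 CPM in LMF. The groups were far apart (-0.69 ± 0.04 SE, adjusted p = 4.33e-15). Rab3il1, an exchange factor for Rab3a and Rab8, went from 56.9 ± 2.26 to 39.4 ± 3.88 CPM (-0.53 ± 0.06, adjusted p = 1.8e-08), and Wdr41, of the C9orf72 complex, from 66.6 ± 2.28 to 49.6 ± 2.51 CPM (-0.42 ± 0.05, adjusted p = 9.18e-08). Of 40 tested GTPase activating proteins, 7 rose and 10 fell (17.5% and 25.0%, beside 17.5% and 16.9% of all genes), with a median of -0.04. Tbc1d2b was at 90.1, 96.3, 96.3 and 105 CPM in Control and 146, 147, 155 and 164 CPM in LMF (0.66 ± 0.05, adjusted p = 9.24e-14), and all its LMF libraries stood above Control. Tbc1d16, which acts on Rab4, fell from 22.0 ± 1.61 to 12.7 ± 0.638 CPM (-0.80 ± 0.09, adjusted p = 6.09e-09). Tbc1d4, an activating protein for Rab10, rose from 200 ± 12 to 249 ± 16.1 CPM (0.31 ± 0.05, adjusted p = 1.85e-06).

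Effectors moved in both directions as well. Of 29 early endosome and recycling effectors 7 rose and 5 fell (24.1% and 17.2%, beside 17.5% and 16.9% of all genes, median 0.02). Ehd1, a membrane remodelling ATPase of the recycling endosome, was at 338, 330, 343 and 336 CPM in Control and 597, 586, 558 and 572 CPM in LMF. It had the smallest adjusted p of all genes in these 6 lists (0.78 ± 0.04 SE, adjusted p = 5.48e-19). Its relative Ehd4 fell from 171 ± 5.58 to 123 ± 5.83 CPM (-0.47 ± 0.04, adjusted p = 3.55e-11). Rab11fip5, which binds Rab11 on recycling endosomes, fell from 128 ± 4.57 to 77.7 ± 1.80 CPM (-0.72 ± 0.04, adjusted p = 1.85e-15).

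Of 29 late endosome and lysosome effectors, 3 rose and 5 fell (27.6% called, beside 34.4% of all genes). Plekhm1, a Rab7 effector that brings lysosomes to fusion, went from 167 ± 10.1 to 136 ± 5.67 CPM (-0.30 ± 0.04, adjusted p = 1.24e-06) and Vps18, a core subunit of the tethering complexes, from 134 ± 8.11 to 112 ± 6.99 CPM (-0.26 ± 0.05, adjusted p = 5.31e-05). Rilpl2, related to the Rab7 effector Rilp and a binder of phosphorylated Rab10, rose from 188 ± 15.3 to 232 ± 15.2 CPM (0.30 ± 0.05, adjusted p = 1.12e-04). Of 34 tested secretory effectors 7 rose and 4 fell (20.6% and 11.8%, beside 17.5% and 16.9% of all genes). Stx11, a fusion protein of cytotoxic granule release, rose from 86.8 ± 4.35 to 110 ± 7.20 CPM (0.35 ± 0.05, adjusted p = 6.38e-07), and Uso1, the Rab1 tether of the Golgi, from 116 ± 3.60 to 139 ± 6.32 CPM (0.26 ± 0.04, adjusted p = 1.04e-05). Snap23, a fusion protein of the plasma membrane, fell from 196 ± 1.63 to 177 ± 2.58 CPM (-0.15 ± 0.04, adjusted p = 0.00194). Over the exchange factors, activating proteins and effectors the shares called were 27.6% to 42.9%, on both sides of the 34.4% of all genes.

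**Figure D5:**
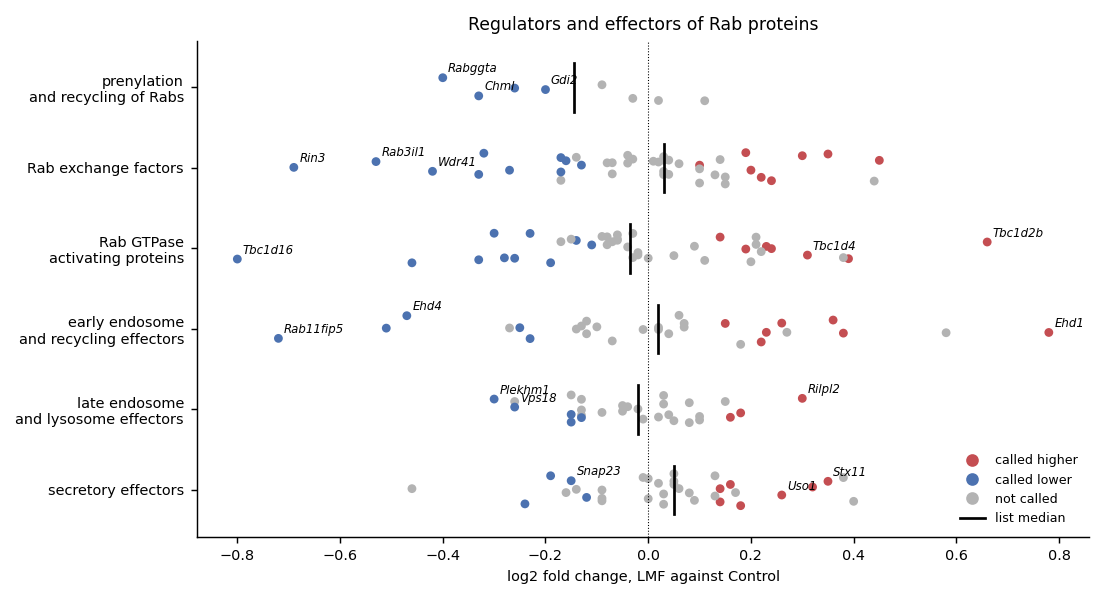
Log2 fold change of LMF against Control for each tested gene of 6 lists of Rab regulators and effectors, with the median of each list as a bar and the 3 called genes of smallest adjusted p named. The prenylation and recycling list has no called gene above 0, and the other 5 lists have called genes on both sides.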

How the data were processed

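RNA was sequenced from 8 libraries of mouse bone marrow-derived dendritic cells, 4 Control and 4 LMF, with 16592672 to 21585750 counts each. The deposited table holds raw counts per gene and library, beside the authors' FPKM values and a gene length, per the file headers. Genome build mm10 and the programs HISAT2 2.0.5, HTSeq, Trimmomatic and DESeq2 are named, without their roles, per the submitters' processing notes. How reads on overlapping or repeated sequence were counted, and whether strand was used, is not given in the sources used here. The build of the table's coordinates could not be settled, so they were used only to find overlaps within the table.

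Counts were tested with edgeR 4.0.16 (R 4.3.3): filterByExpr, TMM scaling, robust quasi-likelihood F test with group as the only term, and a threshold of 0.05 on the Benjamini-Hochberg adjusted p of the 14074 tested genes. The SE is the size of the log2 fold change divided by the root of F, and CPM use the TMM-scaled library sizes. No p was computed over the Rab list, and its counts stand beside those of all genes. Paralog ratios are log2 of (CPM + 0.5), tested by exact permutation of the 8 libraries. Shared sequence is the percent of 50-base stretches of a gene's longest transcript (GENCODE M21) found in the transcripts of another gene. Only the sense sequence of those transcripts was searched. Promoters are RefSeq GRCm38.p6. The test was checked on simulated counts.

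The members, role groups, regulator lists and markers were chosen with earlier results of these data known. Named were called members with an absolute log2 fold change of at least 0.3, and in each role group the called member with the smallest adjusted p and the most abundant by FPKM. Paralogs of named members, the 3 called genes of smallest adjusted p in each regulator list and the remaining members followed. List symbols not matched in the table were Pra1, St5, Stx13, Vamp7, Tmem55b, Mapk8ip4, Giantin and Rab6ip1. Erythroid and megakaryocyte markers (186 to 235 CPM in sum) were also checked. Alternatives were upper-quartile factors, size factors and the test of DESeq2 1.42.0, no filter, a filter of CPM 1 in 4 libraries, limma 3.58.1 (voom, and log2(FPKM + 1) and log2(FPKM + 0.1)), the replicate number as a block, and leaving out each library. The chi-square per degree of freedom of library pairs was 3.50 to 7.80 inside a group and 26.63 to 35.16 across, and every library was counted as its own replicate.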

Additional observations from a re-analysis of the deposited data

Results flagged for a closer look

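Over 58 groups of 4 libraries of the named Rab genes, 6 held a library whose gap to its nearest neighbour was large against the whole range of the group. Chance flags about 1 in 20 such groups, or 2.9 of 58. Rab1b in Control replicate 1 was at 248 CPM against 266 to 269 in the other Control libraries, and the gap was 0.845 of the range. Rab11a in Control replicate 2 was at 39.0 CPM against 43.9 to 44.8 (0.84 of the range), and Rab9 in Control replicate 3 at 62.7 CPM against 55.5 to 56.4 (0.878). In LMF, Rab12 in replicate 4 was at 76.7 CPM against 79.6 to 80.1 (0.861) and still above every Control library. Rab7b in LMF replicate 1 was at 85.7 CPM against 104 to 108 (0.848), and Rab33a in LMF replicate 1 at 0.842 CPM against 0.54 to 0.564 (0.92), a gene with 8 to 20 counts per library. The calls of Rab11a and Rab9 were lost without the library named for each (adjusted p = 0.128 and 0.195, edgeR quasi-likelihood).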

How the results depend on the processing

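Under 17 alternatives the Rab genes called numbered 6 to 9 higher and 9 to 12 lower, and all genes called 4288 to 5047. Of the 21 called Rab genes, 13 passed under all 17, among them the 8 with an absolute log2 fold change of at least 0.3. The other 8 (Rab1a, Rab5a, Rab9, Rab1b, Rab31, Rab44, Rab11a and Rab6a) kept their direction and lost the call in at least 1, and the cause was not tested. Leaving out a library gave 1 to 3 called early endosome genes (1 without Control replicate 3 or LMF replicate 3, against 3) and 3 to 5 called ER and Golgi genes (3 without Control replicate 3, Control replicate 4 or LMF replicate 3, against 5). The counts by role group and by regulator list under the alternatives were added after seeing the data. The 18 named genes of those lists kept their direction and call in all 17. They were picked by smallest adjusted p in the main fit on the same libraries, so this is no separate support. Signs turned only for values near 0 or of few counts. The log2 fold change of Rab5c was -0.0026 with upper-quartile factors, -0.00088 without a filter and -0.022 to 0.027 over the left-out libraries. That of Rab33a was 0.072 with voom, 0.0025 and 0.054 on FPKM plus 1 and plus 0.1, and -0.22 to 0.43 without single libraries. Without single libraries the range was -0.096 to 0.0058 for Rab7b, -0.00067 to 0.043 for Rab8b, -0.21 to 0.058 for the ratio of Rab27a to Rab27b and -0.038 to 0.037 for that of Rab8a to Rab8b. Same-numbered Control and LMF replicates did not deviate together (r of 0.005, 0.028, -0.001 and -0.013), which gave no sign of pairing by number. Values near 0 cannot show whether same-numbered libraries share an origin, because the labels do not state it. With the replicate number as a block, 9 Rab genes were called higher and 12 lower, 4774 of all genes were called, and Rab33a was at 0.047. Sign flips within numbers called 0 paralog pairs, and with a smallest p of 0.125 they could call none. Depth limits the low genes: 10 Rab genes could not be tested and the SE reached 0.45.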
